A study of Brassica napus with 15 samples.

Results

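A group of 66 coding genes of winter oilseed rape (Brassica napus) was switched on between 2 and 12 hours after imbibition (hai) and still held or raised at 36 hai. The members were selected on measured RNA levels in TPM, a read-based level corrected for gene length and library size. In C129, C033 and C032 alike, a gene had to reach at least 5 TPM at 12 hai, at least 6 times its level at both 0 and 2 hai, and between 1 and 10 times its 12 hai level at 36 hai. Of 101040 coding genes 66 met the rule in all 3 accessions. The rise from 0 to 12 hai and the level at 36 hai are therefore properties of the selection. They are described here with no test.

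C129, C033 and C032 are accessions of the winter type with different germination speed, of which C129 was the fastest, and the labels name accession and time as the only differences between samples. Seeds for the germination, metabolite and hormone assays of the study were kept on distilled water in the dark at 20°C. Material from them was collected for further molecular work, and the account of the RNA names no separate conditions. Whole seeds or seedlings were taken dry (0 hai) and at 2, 12, 36 and 72 hai. RNA of 3 replicates of 30 seeds was pooled before sequencing, which leaves 1 library per accession and time point, 15 in all, and no error within a condition. The coding genes of a library held 19.4 M to 41.7 M read equivalents, calculated from read depth and gene length (median 27.5 M). A scaling that sets the typical gene equal between libraries (median-of-ratios) gave size factors of 0.727 to 1.55.

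A dry seed holds stored RNA, and water uptake restarts respiration, transcription and translation before the radicle breaks the seed coat. Genes that are nearly silent in the dry seed and rise within the first hours are known to include genes that prepare embryo cell expansion, reserve use and growth of the seedling. Oilseed rape carries an A and a C subgenome, from the ancestors of turnip and cabbage, so that most Arabidopsis genes have several copies. The labelled tissue was checked with marker genes. A copy of an oleosin, an oil body protein of seeds (AT5G51210), was at 36.3 to 56.5 TPM in the dry seeds and at 0 to 0.157 TPM at 72 hai. A copy of the photosystem subunit PSAN (AT5G64040) was at 0 TPM in the dry seeds and at 19.6 to 24.4 TPM at 72 hai. In whole seeds and seedlings more cells of a type and more RNA per cell cannot be told apart.

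The number of genes raised early differed between the libraries of the 3 accessions. In C129, 26516 genes reached 5 TPM at 12 hai, 1184 of these were also raised 6 times over 0 and 2 hai, and 488 of these were held at 36 hai. In C033 the counts were 20726, 404 and 173, and in C032 they were 22869, 553 and 253. These counts depend on the scaling of the 12 hai libraries, whose size factors were 1.55 in C129, 0.953 in C033 and 1.15 in C032. After median-of-ratios scaling 548, 273 and 310 genes were raised in C129, C033 and C032, and after rescaling the coding genes to 1 total per library 1282, 656 and 613. All 3 accessions shared 227 raised genes. Of these, 66 (29.1%) were held at 36 hai everywhere, 95 (41.9%) were lower at 36 than at 12 hai everywhere, 2 were above 10 times everywhere, and 64 (28.2%) were mixed between accessions. A further 130 genes met the rule in exactly 2 accessions. Of the 42 that missed it in C129, 33 were lower at 36 than at 12 hai there. Of the 55 that missed it in C033, 40 were raised less than 6 times and 19 were under 5 TPM at 12 hai. Of the 33 that missed it in C032, 19 were raised less than 6 times, 19 were under 5 TPM and 7 were above 10 times at 36 hai. A gene can fail on more than 1 condition.

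Genes near each threshold had nearly the same values on both sides. The lowest rises inside were 6.01 times for BnaA02g05040D and 6.03 times for BnaA05g16170D, and the highest outside by this criterion alone were 5.95 times for BnaA03g39100D and 5.90 times for BnaA01g21450D. At the level threshold BnaA01g34620D and BnaC04g46630D were inside with 5.29 TPM each in their lowest accession, and BnaCnng16580D with 4.70 TPM and BnaA09g45580D with 4.67 TPM were outside. At the lower bound of the ratio of 36 to 12 hai, BnaA10g00690D with 1.04 and BnaC08g40860D with 1.08 were inside, while BnaA09g17950D with 0.980 and BnaA03g34510D with 0.959 were outside. At the upper bound BnaA01g00690D with 9.68 and BnaA03g05390D with 9.49 were inside, while BnaC03g06920D with 10.2 and BnaC09g50040D with 11 were outside. Membership also rested on the scaling. After median-of-ratios scaling 33 genes met the rule, of which 32 were among the 66. After rescaling coding genes to a common total 78 genes did, of which 56 were among the 66.

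In the dry seed the members were close to silent. For C129, C033 and C032, their median was 0.907, 0.861 and 0.549 TPM, and 37, 39 and 49 of the 66 were under 1 TPM. At 2 hai the medians were 1.15, 0.826 and 0.810 TPM, at 12 hai 19.8, 9.34 and 9.80 TPM, at 36 hai 45.7, 27.9 and 32.1 TPM and at 72 hai 27.2, 23.9 and 28.6 TPM, in the same order of accessions. Summed over the members, the level in C129 went from 95.0 TPM dry to 2223 TPM at 12 hai, 5534 TPM at 36 hai and 4128 TPM at 72 hai. In C033 the sums were 82.6, 928, 3375 and 2726 TPM, and in C032 they were 53.0, 1032, 3981 and 3646 TPM. The sum thus peaked at 36 hai in every accession, and the heat map of all members shows that most rows share this peak. From 12 to 36 hai the median ratio was 1.85 for C129, 2.35 for C033 and 2.73 for C032. The accession with the highest median at 12 hai thus had the smallest further rise. At 12 hai the members rested on medians of 970.2 (C129), 347 (C033) and 412 (C032) read equivalents, and the lowest was 89.6 for BnaA07g01890D in C033. The dry levels under 1 TPM rest on few reads, which makes the fold over the dry seed imprecise.

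**Figure D1:**
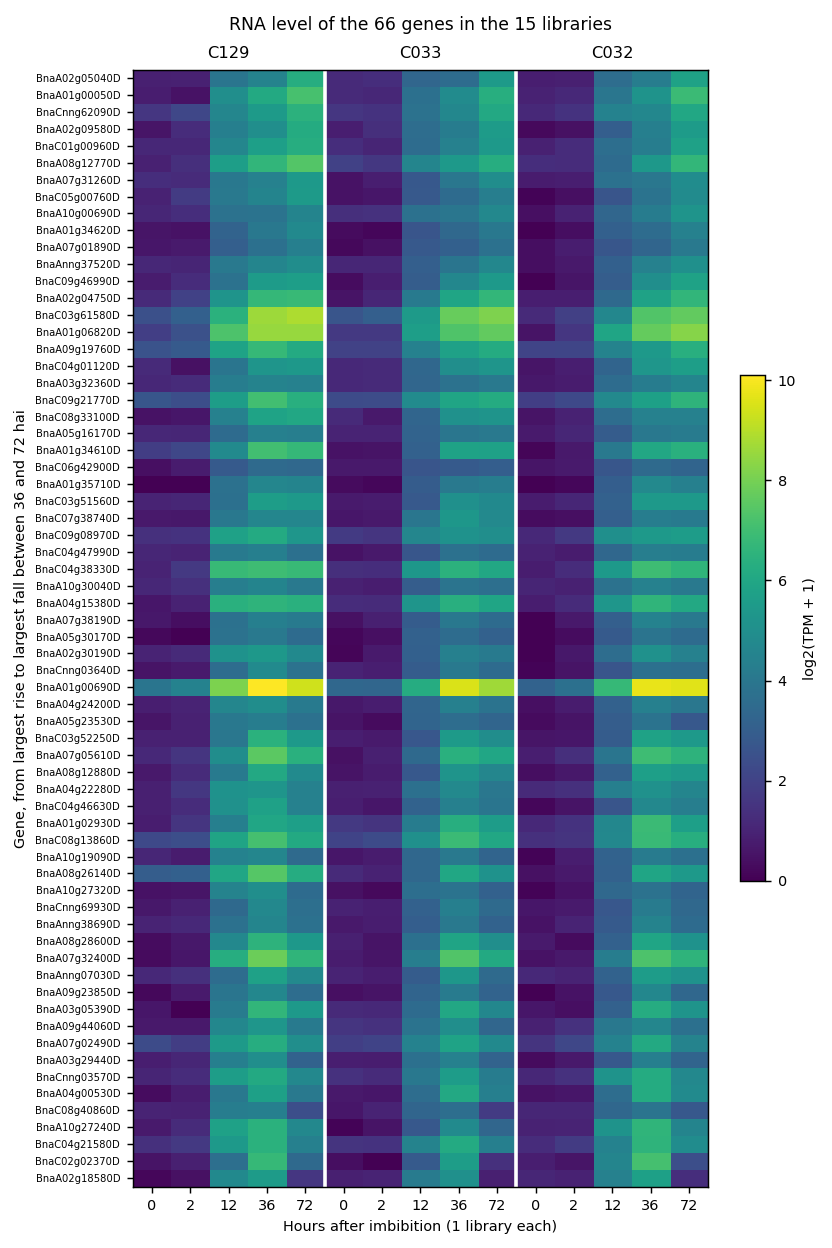
Heat map of the 66 genes (rows) in the 15 libraries (columns, grouped by accession and ordered by hours after imbibition), coloured by log2(TPM + 1). Rows run from the largest rise to the largest fall between 36 and 72 hai, and the columns at 0 and 2 hai are dark in nearly all rows, with medians from 0.549 to 1.15 TPM.

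The 8 members with the highest mean at 12 hai come first. Here and in what follows, 5 values of a gene in an accession are its TPM at 0, 2, 12, 36 and 72 hai. In C129 BnaA01g00690D had 14.1, 21.5, 274, 1094 and 659.7 TPM, in C033 9.4, 9.11, 75.4, 729.8 and 399 TPM and in C032 8.04, 12.3, 109, 856 and 795 TPM. It was the most abundant member at 12, 36 and 72 hai in all 3 accessions, and the fall from 36 to 72 hai was seen in each. The values of BnaA01g06820D were 2.65, 4.67, 154, 366 and 367 TPM in C129, 2.2, 2.22, 49.5, 158 and 202 TPM in C033 and 0.436, 2.01, 60.8, 207 and 307 TPM in C032. BnaC03g61580D was at 4.58, 7.61, 85.8, 389.7 and 462 TPM in C129, at 5.42, 7.25, 44, 212 and 284 TPM in C033 and at 1.32, 2.79, 24.5, 162 and 201 TPM in C032. Both kept or raised their 36 hai level at 72 hai in every accession, with log2 changes of 0.31 and 0.32 that did not pass the test described below. In C129 BnaC04g38330D had 0.989, 2.2, 111, 123 and 111 TPM, in C033 1.55, 1.52, 39.2, 89.4 and 65.7 TPM and in C032 0.761, 1.41, 42.9, 124 and 96.3 TPM. The values of BnaA04g15380D were 0.513, 0.93, 84.3, 93.8 and 83.7 TPM in C129, 1.42, 1.34, 37.2, 81.2 and 60.4 TPM in C033 and 0.774, 1.36, 38.3, 95.5 and 68.1 TPM in C032. These 2 genes ran a similar course and were at 36 hai little above their 12 hai level in C129, while C033 and C032 at least doubled. BnaC08g13860D was at 3.65, 4.31, 58.6, 138 and 69.3 TPM in C129, at 3.08, 3.96, 32.9, 117 and 65.8 TPM in C033 and at 1.68, 1.89, 25.4, 113 and 80.5 TPM in C032. In C129 BnaA07g32400D had 0.238, 0.528, 77.5, 226 and 96.1 TPM, in C033 0.712, 0.493, 19.1, 163 and 69.7 TPM and in C032 0.409, 0.627, 18.2, 152 and 93.3 TPM. The values of BnaC09g08970D were 1.63, 1.77, 53.2, 70.3 and 38.2 TPM in C129, 2.33, 1.98, 23.5, 34.1 and 30.8 TPM in C033 and 1.22, 2.16, 32, 43.1 and 46.8 TPM in C032. BnaA07g32400D had one of the steepest rises of the group, at least 26.9 times over 0 and 2 hai in each accession. BnaC09g08970D stayed within 2-fold of its 12 hai level through 72 hai. The products of these genes were not annotated in the sources used here.

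The 72 hai libraries took no part in the selection and gave the first levels independent of it, although the 36 hai libraries they are compared with did take part. For the comparison, limma was fitted on log2(TPM + 1) of 53233 genes with terms for time and accession. Accessions thus stood in for replicates of each time point. A call needed a log2 change beyond 1 as well as a p under 0.05 after Benjamini-Hochberg adjustment. The spread behind each p came from the libraries of all time points, and those before 72 hai took part in the selection. The rule asked for the same course in each accession. Standard errors, p-values and calls of the members are therefore not independent of the selection and are given as a description. Between 36 and 72 hai 14 of the 66 members were called lower and 5 higher. Over all genes tested the order was opposite, with 4.82% called lower and 17.1% called higher. The median log2 change was −0.40 over the members and 0.21 over all genes. Because the rule asked for a 36 hai level no lower than that at 12 hai, the members were also set beside 4933 other genes that met the same conditions at 12 and 36 hai without the early rise. Of those 15.9% were called lower and 5.35% higher, with a median of −0.22, against 21.2% and 7.58% of the members. Of the 95 genes raised at 12 hai but lower at 36 hai, 15.8% were called in each direction, with a median of −0.10. Lower calls thus outnumbered higher calls also among the 4933 genes, which lay within the same bounds at 12 and 36 hai but missed the early rise. They were not matched to the members on the size of the change from 12 to 36 hai.

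The direction at 72 hai was mostly the same in the 3 accessions. Of the 66 members, 39 were lower at 72 than at 36 hai in all 3 accessions, 18 were higher in all 3, and 30 stayed within 2-fold in all 3. These were 59.1%, 27.3% and 45.5% of the members, beside 22.5%, 44.2% and 43.0% of all genes tested. Of the 4933 genes within the same bounds at 12 and 36 hai they were 45.1%, 20.2% and 55.4%. For C129, C033 and C032 the median ratio of 72 to 36 hai was 0.660, 0.737 and 0.779, where all genes tested had 1.03, 1.25 and 1.39. The 4933 genes had 0.685, 0.859 and 1.04, so that in C129 they were close to the members. At 72 hai 44 members (66.7%) were nevertheless above their 12 hai level in all 3 accessions, and 5 were below it in all 3. Above it were also 61.3% of the 4933 genes within the same bounds at 12 and 36 hai, and 46.5% of all genes tested. Below it in all 3 were 535 of the 4933 genes and 16521 of the 53233 genes tested. Across the 66 genes the log2 ratio of 72 to 36 hai in C129 correlated with that in C033 (Pearson's r = 0.94) and in C032 (r = 0.90), and that in C033 with that in C032 (r = 0.95), as a description over genes that are not independent.

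**Figure D2:**
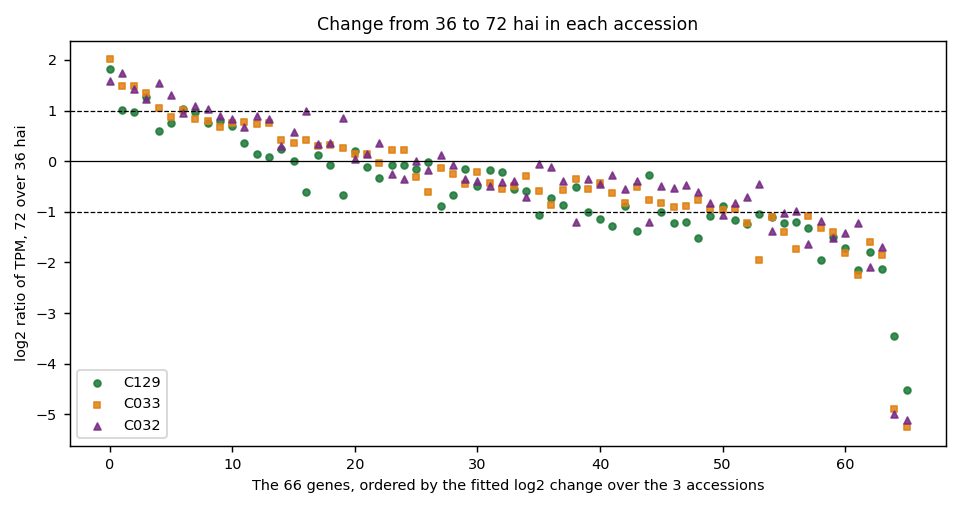
The log2 ratio of TPM at 72 over 36 hai (y axis) for each of the 66 genes (x axis, ordered by the fitted change), with 1 point per accession and dashed lines at 2-fold. Of the genes 18 are above 0 in all 3 accessions and 39 below, and BnaA02g18580D and BnaC02g02370D stand alone at the lower right.

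BnaA02g18580D and BnaC02g02370D fell the furthest of the members between 36 and 72 hai. BnaA02g18580D was at 0.123, 0.363, 26.7, 45.7 and 2.00 TPM in C129, at 0.865, 1.02, 17.5, 32.3 and 0.847 TPM in C033 and at 1.11, 0.931, 21, 51.7 and 1.5 TPM in C032. In C033 and C032 its 72 hai level was within 2-fold of the dry seed. In C129 BnaC02g02370D had 0.431, 0.874, 11.8, 108 and 9.9 TPM, in C033 0.306, 0, 6.3, 47.8 and 1.61 TPM and in C032 0.79, 0.505, 23.1, 139 and 4.4 TPM. This gene rose further than most from 12 to 36 hai and then fell in each accession. The log2 changes from 36 to 72 hai were −4.18 (SE 0.26, adjusted p = 3.58e-08) for BnaA02g18580D and −4.08 (SE 0.33, adjusted p = 5.23e-07) for BnaC02g02370D by limma with Benjamini-Hochberg adjustment. The next largest falls were smaller. The values of BnaC04g21580D were 1.61, 2.15, 43.6, 87.2 and 19.9 TPM in C129, 1.83, 1.8, 21.6, 70.4 and 19.4 TPM in C033 and 1.42, 2.42, 21.3, 93.2 and 28.7 TPM in C032. BnaA10g27240D was at 0.675, 1.37, 53.6, 86.2 and 25 TPM in C129, at 0.0823, 0.429, 5.79, 27.3 and 9.01 TPM in C033 and at 0.933, 1.02, 35.5, 96.3 and 22.7 TPM in C032. In C129 BnaC08g40860D had 1.01, 0.937, 18.3, 19.7 and 4.44 TPM, in C033 0.534, 1.01, 8.69, 11.4 and 2.4 TPM and in C032 1.1, 1.12, 9.42, 13.7 and 5.84 TPM. All 3 were at 72 hai below their own 12 hai level in C129 and, except for BnaA10g27240D in C033 and BnaC04g21580D in C032, in the other accessions. Their log2 changes were −1.85, −1.76 and −1.63, with adjusted p from limma of 1.49e-05, 0.00142 and 4.60e-05. The call of BnaA10g27240D was lost without C032 (adjusted p = 0.0657 by limma). The remaining 9 falls called had log2 changes from −1.60 for BnaA04g00530D to −1.05 for BnaA07g32400D. The call of BnaA07g32400D was lost when any 1 accession was left out, that of BnaAnng07030D without C033, and that of BnaA03g05390D without C032. With a pseudocount of 0.01 the calls of BnaA03g05390D, BnaA07g32400D, BnaA09g23850D and BnaA09g44060D were lost.

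The 5 members called higher at 72 than at 36 hai were at 7.16 to 30.5 TPM at 12 hai. The values of BnaA02g05040D were 0.842, 0.925, 14.1, 21.8 and 76.8 TPM in C129, 1.27, 1.51, 9.08, 10.8 and 43.7 TPM in C033 and 0.776, 0.866, 11.3, 18.3 and 54.9 TPM in C032. BnaA01g00050D was at 0.737, 0.41, 30.5, 69.3 and 140.1 TPM in C129, at 1.28, 1.19, 12.4, 28.4 and 79.4 TPM in C033 and at 0.932, 1.22, 14.4, 35.3 and 118 TPM in C032. In C129 BnaCnng62090D had 2.00, 3.43, 24.1, 44.8 and 88.2 TPM, in C033 2.00, 1.79, 13.1, 24.2 and 68 TPM and in C032 1.25, 1.81, 21.1, 24.3 and 65.4 TPM. In each accession the 72 hai value was the highest of the time course for all 3 genes. Their log2 changes from 36 to 72 hai were 1.74 (SE 0.24, adjusted p = 3.80e-05) for BnaA02g05040D, 1.39 (SE 0.34, adjusted p = 0.00447) for BnaA01g00050D and 1.27 (SE 0.19, adjusted p = 9.07e-05) for BnaCnng62090D by limma. The call of BnaA01g00050D was lost without C032. The values of BnaC01g00960D were 1.17, 1.18, 23.9, 51.1 and 77.4 TPM in C129, 1.5, 1.05, 11, 20.5 and 42.1 TPM in C033 and 0.884, 1.46, 11.5, 18.4 and 53.4 TPM in C032. Its log2 change of 1.03 (SE 0.27, adjusted p = 0.00638) by limma fell under the threshold of 1 after median-of-ratios scaling (0.83) and after rescaling of coding genes (0.82). The call was also lost without C032, where 3 members in all were called higher, beside 13% of all genes. With those 2 scalings 4 members were called higher and 20 lower. Over all genes 13.3% were then called higher and 6.74% lower with median-of-ratios, and 14.7% and 7.32% with coding genes rescaled. The median change of all genes went from 0.21 to 0.06 with either scaling.

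The fifth gene called higher, BnaA02g09580D, was the 1 member with an Arabidopsis match at hand. It matches AT5G54500, FQR1, which in Arabidopsis encodes a flavodoxin-like quinone reductase that transfers electrons to quinones and is a primary auxin response gene. BnaA02g09580D was at 0.500, 1.46, 19.4, 30.4 and 73.6 TPM in C129, at 0.793, 1.57, 11.2, 18.1 and 46.1 TPM in C033 and at 0.203, 0.353, 7.16, 19.7 and 45.7 TPM in C032. The level rose at every step from 2 to 72 hai in each accession, and C129 was highest from 12 hai on. The log2 change from 36 to 72 hai was 1.24 (SE 0.23, adjusted p = 0.000408) by limma.

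Among 6 copies matched to FQR1 the early hold was found in full only in BnaA02g09580D, although a common rise at 72 hai was found in all 6. In C129 BnaCnng16580D had 0.181, 0.784, 6.65, 47.7 and 80.4 TPM, in C033 0.694, 0.223, 4.7, 20.7 and 46.3 TPM and in C032 0.371, 0.53, 9.87, 32.2 and 73.2 TPM. It met the rule in C129 and C032 and missed it in C033 by its 4.70 TPM at 12 hai. The values of BnaC03g14590D were 2.94, 1.76, 4.8, 14.5 and 70.4 TPM in C129, 3.07, 3.03, 5.8, 7.59 and 40.7 TPM in C033 and 1.09, 1.69, 13.4, 17.2 and 64.5 TPM in C032. BnaA03g11850D was at 3.97, 5.71, 21.9, 12.4 and 62.3 TPM in C129, at 4.17, 4.18, 20.0, 11.7 and 46.9 TPM in C033 and at 1.64, 3.28, 22.1, 11 and 47.1 TPM in C032. BnaC03g14590D met the rule in C032, where it rose 7.92 times, and had 1.63 and 1.89 times in C129 and C033. BnaA03g11850D was already present in the dry seed and was lower at 36 than at 12 hai in each accession, with ratios of 0.565, 0.586 and 0.496. In C129 BnaA10g08330D had 0, 0.0874, 0.682, 4.29 and 19.1 TPM, in C033 0.161, 0.158, 0.29, 3.32 and 8.56 TPM and in C032 0, 0, 0.128, 2.66 and 12.9 TPM. The values of BnaCnng38420D were 0, 0.249, 0.323, 1.32 and 9.65 TPM in C129, 0, 0.168, 0.157, 1.05 and 5.39 TPM in C033 and 0, 0, 0, 0 and 0.797 TPM in C032. These 2 copies stayed under 1 TPM to 12 hai in all 3 accessions. From 36 to 72 hai all 6 copies were called higher by limma, with log2 changes from 1.01 for BnaCnng16580D to 2.11 for BnaC03g14590D. Reads of near-identical copies may have been shared between them by the mapping, which makes the level of each copy uncertain.

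**Figure D3:**
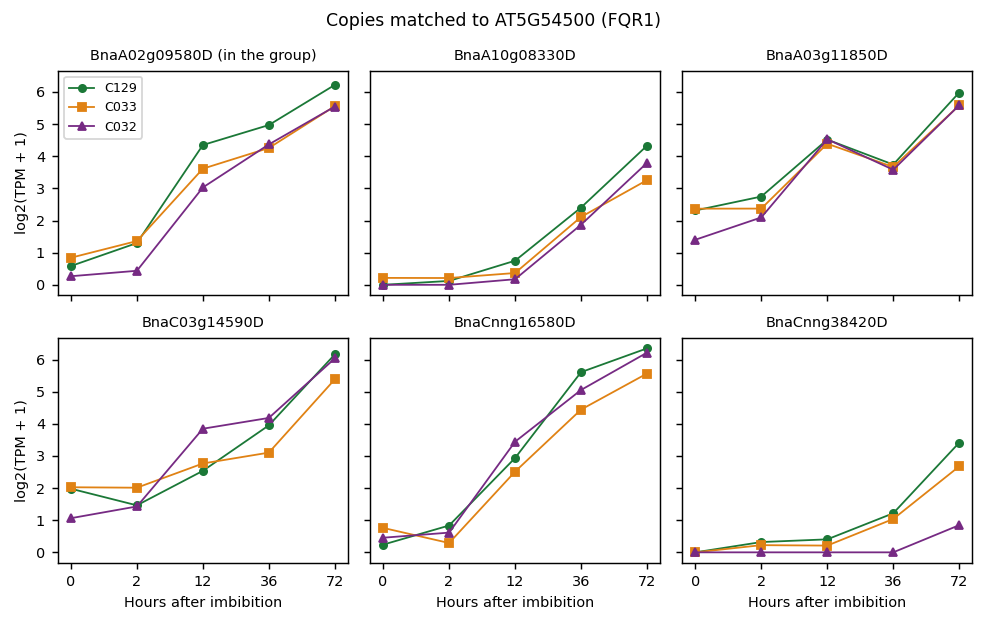
Levels of the 6 copies matched to AT5G54500 as log2(TPM + 1) (y axis) at 0, 2, 12, 36 and 72 hai (x axis, evenly spaced), with 1 line per accession and 1 library per point. BnaA02g09580D climbs from 12 hai in all 3 accessions, BnaA03g11850D dips at 36 hai, and all copies are highest at 72 hai.

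C129 held the highest level of nearly every member at 12 hai. The 12 hai levels of all 3 accessions took part in the selection, so the order is a description of the selected genes. C129 was highest in 64 of the 66 (97.0%), against 73.1% of the 18928 genes with at least 5 TPM at 12 hai in all accessions and 81.1% of the 95 genes raised at 12 hai but lower at 36 hai. The median ratio of C129 to C033 was 2.01 and that of C129 to C032 was 2.04, where the 18928 genes had 1.58 and 1.30. The 95 genes had 1.85 and 1.58. In 23 members (34.8%) C129 was at least 2-fold above both, against 5.90% of the 18928 genes and 22.1% of the 95 genes. The size factors are given above. At 12 hai non-coding genes took 13.0%, 26.6% and 15.4% of the length-weighted read depth of C129, C033 and C032. The coding genes summed to 792221, 608866 and 748839 TPM in the same libraries. The part of the size factors and of these differences in the order was not tested. After median-of-ratios scaling C129 was highest in 50 members (75.8%) against 33.2% of the 18928 genes, with median ratios of 1.24 and 1.52. With that scaling C129 was highest in 54.7% of the 95 genes, with median ratios of 1.14 and 1.17. C129 was then at least 2-fold above both in 4 members (6.06%), against 0.571% of the 18928 genes and 0 of the 95 genes. At 36 hai C129 was highest in 52 members (78.8%), beside 78.6% of the 18928 genes, and after median-of-ratios scaling in 22 (33.3%), beside 30.8%. At 72 hai it was highest in 43 (65.2%), beside 48.8%, and after median-of-ratios scaling in 33 (50.0%), beside 31.5%. Of the 95 genes, which were selected as lower at 36 hai, 33.7% were highest in C129 at 36 hai and 63.2% at 72 hai. After median-of-ratios scaling these shares were 5.26% and 48.4%. With 1 library per accession and time point no test of a difference at 12 hai can be given.

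**Figure D4:**
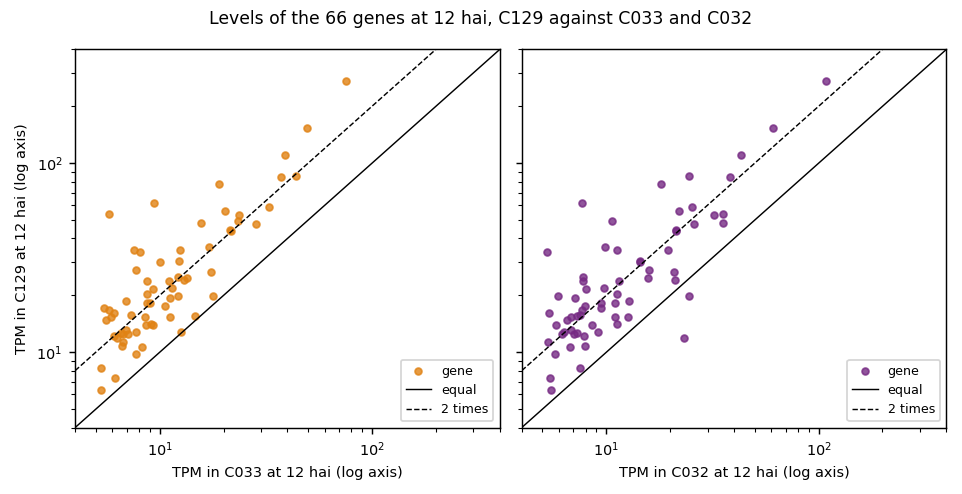
TPM of the 66 genes at 12 hai in C129 (y axis, log scale) against C033 (left x axis) and C032 (right x axis), 1 point per gene, with a solid line at equal levels and a dashed line at 2 times. All points are above the solid line for C033 and 64 of 66 are for C032, and the medians lie at 2.01 and 2.04 times.

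The largest lead of C129 at 12 hai was that of BnaA08g26140D. BnaA08g26140D was at 6.89, 7.46, 61.3, 171 and 74.5 TPM in C129, at 1.29, 0.931, 9.38, 64.1 and 34.8 TPM in C033 and at 0.358, 0.626, 7.72, 59.7 and 43.2 TPM in C032. C129 was above both other accessions at every time point, from the dry seed on. In C129 BnaC04g46630D had 0.827, 1.44, 33.8, 54.3 and 20.9 TPM, in C033 0.796, 0.528, 8.1, 20.2 and 14.1 TPM and in C032 0.123, 0.452, 5.29, 25.2 and 19.2 TPM. BnaC04g46630D and BnaA07g32400D followed, with C129 at 4.17 and 4.05 times the higher of the other 2 accessions, where BnaA08g26140D had 6.54 times. At the other end BnaC02g02370D in C129 was at 0.512 times the higher of the other accessions, which was C032. The values of BnaA01g02930D were 0.737, 1.92, 19.8, 61.8 and 51 TPM in C129, 2.22, 1.83, 17.8, 79.2 and 46.4 TPM in C033 and 1.25, 1.77, 24.6, 117 and 50.8 TPM in C032. BnaA10g00690D was at 1.12, 1.52, 12.9, 13.4 and 22.7 TPM in C129, at 1.58, 1.74, 12.6, 14.5 and 25 TPM in C033 and at 0.331, 0.953, 9.16, 18 and 36.9 TPM in C032. BnaA01g02930D was at 0.804 times the level of C032, and BnaA10g00690D was at about the same level in C129 and C033 at 12 hai.

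Differences between accessions over the 5 time points were taken from the same limma fit, with time points standing in for replicates. The levels at 4 of the 5 time points took part in the selection, which asked for the same course in each accession, so the counts and differences of the members are given as a description. C129 was called above C032 in 4 members, where 4.47% of all genes were called in this direction, and above C033 in 6 members, where 4.27% were. C033 was called below C032 in 2 members, beside 3.14% of all genes. After median-of-ratios scaling C129 was called above C032 in 2 members and above C033 in 2, where 2.81% and 1.86% of all genes were. BnaA08g26140D was called in both comparisons of C129, with log2 differences of 2.01 (SE 0.24) over C032 and 1.80 (SE 0.24) over C033. BnaA01g34610D was also called in both, with log2 differences of 1.03 and 1.36. The other genes called above C032 were BnaC03g61580D (1.34) and BnaC04g46630D (1.02), and those above C033 were BnaA10g27240D (1.47), BnaC05g00760D (1.02), BnaC02g02370D (1.01) and BnaA02g30190D (1.01). C033 was below C032 in BnaA10g27240D, with a log2 difference of −1.36 (SE 0.28), and in BnaC02g02370D (−1.07). The 3 comparisons share libraries. The median log2 difference of all genes was 0.26 for C129 against C032 and 0.36 for C129 against C033, and 0.02 and 0.01 after median-of-ratios scaling. The calls left with that scaling were BnaA08g26140D and BnaC03g61580D over C032, and BnaA08g26140D and BnaA10g27240D over C033. In C129 BnaA01g34610D had 2.54, 3.42, 27.4, 131 and 104 TPM, in C033 0.416, 0.43, 7.73, 55.3 and 53.6 TPM and in C032 0.109, 0.604, 15.9, 65.7 and 84.1 TPM. Its differences were 0.80 and 0.96 after median-of-ratios scaling, under the threshold of 1. With 1 time point left out, calls were lost for BnaA01g34610D over C032 (without 0 or 2 hai), BnaC04g46630D (12 or 36 hai), BnaA02g30190D (12 hai), BnaC05g00760D (2, 12 or 72 hai), and BnaC02g02370D over C033 (36 or 72 hai) and under C032 (12 or 36 hai).

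The members were spread over the genome, with more on the A than on the C subgenome. By their names 43 (65.2%) were on A and 23 on C, whereas 47.9% of all genes tested, 50.5% of the 95 genes raised at 12 hai but lower at 36 hai, and 50.8% of the 130 genes that met the rule in exactly 2 accessions were on A. Chromosome A01 held 7 members, A07 6, and A02, A10 and C04 5 each, and 7 were not placed on a chromosome. BnaA01g34610D and BnaA01g34620D were neighbours on the same strand of an A01 scaffold of the assembly of Chalhoub et al. They lay at bases 8553 to 10593 and 15492 to 17307, with no annotated coding gene in the 4898 bases between them. The values of BnaA01g34620D were 0.473, 0.42, 8.27, 15.3 and 26.4 TPM in C129, 0.22, 0.142, 5.29, 9.65 and 15.4 TPM in C033 and 0, 0.288, 7.51, 11 and 20.4 TPM in C032. BnaA01g34620D was higher at 72 than at 36 hai in each accession, with ratios of 72 to 36 hai of 1.73, 1.60 and 1.85 in C129, C033 and C032. Those of BnaA01g34610D were 0.797, 0.971 and 1.28, so that both neighbours were higher at 72 than at 36 hai in C032. Another 8 pairs of members lay on a common scaffold, with at least 6 coding genes between them. The median transcript length of the members was 1618 bases against 1323 for all genes tested and 1510 for the 18928 genes with at least 5 TPM at 12 hai, and the median number of exons was 4 for the members and for all genes tested. Of the members 10 had a single exon.

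Arabidopsis matches were at hand for 3060 genes, all from a table of genes that changed during germination, so known roles could be given for few genes of this pattern. BnaA02g09580D was the only one of the 3060 that met the rule in all 3 accessions, 9 met it in exactly 2 and 23 in exactly 1. In the lists of loci, 0 of 90 matched genes of transcription factors, 0 of 64 of cell wall and cell surface proteins, 0 of 20 of hormone metabolism and signalling, 1 of 52 of central metabolism and transport and 0 of 13 of cell cycle, chromatin and cytoskeleton were members. Of all 101040 coding genes only 66 were members, so lists of this size say nothing about the roles in the group. Nearly all listed loci also lay on a single Arabidopsis chromosome. From 36 to 72 hai the genes called higher by limma were 20 of 60 tested transcription factors, 6 of 56 cell wall genes, 3 of 10 hormone genes, 23 of 49 genes of metabolism and transport and 2 of 12 cell cycle genes, and 1 transcription factor was called lower. Of all genes tested 17.1% were called higher. The lists hold only genes that changed during germination in these data, so their shares cannot be compared with that of all genes.

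Further genes with a match are named here after their values were seen, of which the first 4 met the rule in exactly 2 accessions. BnaA06g21300D matches CNX1 (AT5G61790), a calnexin that helps glycoproteins fold in the endoplasmic reticulum. BnaA06g21300D was at 2.03, 2.88, 24.3, 103 and 56.6 TPM in C129, at 1.73, 1.81, 11.1, 54.7 and 39.9 TPM in C033 and at 1.33, 2.69, 11.9, 70.6 and 54.8 TPM in C032. BnaA02g33370D matches AT5G62350, a protein of the invertase and pectin methylesterase inhibitor family. In C129 BnaA02g33370D had 5.19, 5.73, 59.9, 225 and 154 TPM, in C033 4.51, 4.26, 21.4, 121 and 97.9 TPM and in C032 1.02, 2.3, 20.6, 176 and 128 TPM. BnaAnng04800D matches the homeobox factor HB5 (AT5G65310). The values of BnaAnng04800D were 1.72, 2.34, 27.7, 38.5 and 67.2 TPM in C129, 1.87, 1.7, 10.7, 20.4 and 45.1 TPM in C033 and 0.99, 1.28, 8.73, 23.7 and 53.2 TPM in C032. The first 2 peaked at 36 hai in each accession, and the HB5 copy went on rising to 72 hai. BnaA10g10940D matches GNC (AT5G56860), a GATA factor that promotes chloroplast development in Arabidopsis. BnaA10g10940D was at 0, 0.313, 6.97, 15.2 and 10.3 TPM in C129, at 0.353, 0.399, 8.55, 10.4 and 8.09 TPM in C033 and at 0, 0.275, 2.96, 13.4 and 12.1 TPM in C032. It missed the rule in C032 with 2.96 TPM at 12 hai. A copy of the trehalose phosphate phosphatase TPPA (AT5G51460), BnaA02g11230D, was raised at 12 hai in all 3 accessions and met the whole rule in C032, being lower at 36 than at 12 hai in C129 and C033. In C129 BnaA02g11230D had 0, 0.226, 10.1, 7.87 and 7.2 TPM, in C033 0.0789, 0.138, 9.58, 8.84 and 7.57 TPM and in C032 0, 0.278, 7.35, 9.65 and 6.77 TPM.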

How the data were processed

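RNA levels were analysed in 15 libraries, 1 for each of 3 accessions at 5 time points, grouped by their labels. The authors trimmed adapters and used HISAT for mapping and StringTie for quantification, on the genome of Chalhoub et al., with versions not given in the sources used here. The TPM values were deposited by the authors as written by StringTie, for coding and non-coding genes. Summed per library, coding genes held 608866 to 904932 TPM and non-coding genes at most 10377 TPM. The deposited rows thus did not share a common total. The coverage (mean read depth per gene) was also deposited by the authors, and was used, with a read length of 100, only for read equivalents and the non-coding share. A TPM below 1 rests on few reads.

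The selection rule was applied to the coding genes, and members and gene lists were chosen with earlier results of these data known. Differences were tested with limma 3.58.1 and statmod 1.5.0 in R 4.3.3 (trend and robust options). The values were log2(TPM + 1), genes had to reach 1 TPM in 3 or more libraries, and the terms were time and accession, leaving 8 residual degrees of freedom. Fold changes on this scale understate the change of low genes. The 3 accessions, or the 5 time points, serve as replicates, so that p-values measure the spread between these pooled libraries. The fit of 72 against 36 hai was tested on simulated data. Descriptive steps used Python 3.11.15, numpy 2.4.6, pandas 2.3.3, scipy 1.17.1 and matplotlib 3.10.9.

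Genes named were those with an Arabidopsis match, the 8 highest at 12 hai, the 5 largest rises and falls from 36 to 72 hai, the 3 largest and smallest ratios of C129 to the higher other accession at 12 hai, and up to 2 genes on each side of a threshold. Others were named after their values were seen. Alternatives were other thresholds and scalings, pseudocounts, filters, the model without its second term, and each accession or time point left out. The scaled counts of genes raised in each accession were added after seeing the data. Arabidopsis matches came from the part of the study's gene table at hand. Of the members, 4 had a symbol in a RefSeq table of another assembly, from which no name or position was taken. Markers for napin and RAB18 had no match at hand, and the 2 copies of LHCB3 were at 0.489 to 1.77 TPM dry and 8.09 to 26.3 TPM at 72 hai. Sequences were not used here.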

Additional observations from a re-analysis of the deposited data

How the results depend on the processing

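Between 36 and 72 hai 11 of the 19 members called kept their call under every alternative run, and the count of members called lower ranged from 10 to 20. Over all genes the share called lower ranged from 3.26% (no filter on low values) to 7.32% (coding genes rescaled). The count of members called higher was 3 (without C032) to 6 (without C129) with 1 accession left out, beside 13% and 16.6% of all genes. The number of genes that met the rule was 136 with a 4-fold and 39 with an 8-fold rise, 127 with at least 2 TPM and 23 with at least 10 TPM at 12 hai, and 33 after median-of-ratios scaling. With 1 accession left out it was 99 (without C032), 108 (without C129) and 121 (without C033), with all 66 among them, since fewer conditions are asked. C129 was called above C032 in 10 members with a pseudocount of 0.1 and in 9 with 0.01 (8.61% and 8.37% of all genes), and in 2 after median-of-ratios scaling (2.81%). With 1 time point left out it was called above C032 in 3 to 7 (the latter without 72 hai), beside 4.07% to 6% of all genes. C129 was called above C033 in 2 members after median-of-ratios scaling (1.86% of all genes) and in 3 with coding genes rescaled (3.05%). With 1 time point left out it was called above C033 in 4 to 9, beside 3.71% to 5.68% of all genes. C033 was called above C032 in 1 member with a pseudocount of 0.1 or 0.01, after median-of-ratios scaling and with coding genes rescaled (2.91% to 3.65% of all genes). It was called below C032 in 1 member with a pseudocount of 0.01 (4.97% of all genes) and after median-of-ratios scaling (2.71%). With 1 time point left out C033 was called below C032 in 1 (without 12 or 36 hai) to 2, beside 2.67% to 3.76% of all genes. Without time as a term, limma called 0 members in these 3 comparisons, and 0 reached an unadjusted p under 0.05 in any of them, since the change over time then counts as spread. Of all genes 2.43% were then called higher in C129 than in C032 and 2% higher than in C033. None of the 12 accession calls held under every alternative run, since the run without time as a term kept none of them. In that run alone the calls of BnaA08g26140D over C032 and over C033 and of BnaC03g61580D over C032 were lost. The same held for BnaA10g27240D, called higher in C129 than in C033 and lower in C033 than in C032. The cause of the other changes was not tested. The comparison of 72 with 36 hai was blocked by accession. Without that block 4 members were called higher and 12 lower, beside 16% and 4.22% of all genes.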
